A study of Mus musculus with 6 samples.

Results

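The 8 genes described here mark airway basal cells and squamous epithelium: the keratin genes Krt5, Krt14, Krt15 and Krt17, the transcription factor gene Trp63, the neurotrophin receptor gene Ngfr, and the epithelial genes Dapl1 and Trim29. They come from a fixed list that was chosen with earlier results of these data known. They were found on the arrays through the RefSeq names of their probes. All 8 had at least 1 probe well above background on 2 or more arrays and were among the 16422 genes tested. They were measured in lung cells left after magnetic removal of CD45-bearing leukocytes. WT mice were C57BL/6J and Ccr2KO mice were B6.129S4-Ccr2tm1Ifc/J, which lack the chemokine receptor CCR2 throughout the body. Mice of 7 to 9 weeks were left untreated (day 0) or studied 28 or 40 days after aspiration of silica particles, which cause silicosis. For each of the 6 combinations of genotype and day, the RNA of 3 biological replicates was pooled and hybridised to 1 array, so no group has a spread between animals.

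Basal cells are the stem cells of the pseudostratified airway lining and rest on its basement membrane. KRT5 and KRT14 are partner proteins that pair into the intermediate filaments of these cells, and p63, the product of Trp63, maintains their identity. In mice basal cells are normally found in the trachea and main bronchi, and cells with KRT5 and p63 can appear in the distal lung after severe injury, as after influenza. KRT17 is a keratin of stressed and healing epithelium, KRT15 a keratin of basal layers, TRIM29 a squamous epithelial protein, and DAPL1 a protein linked to early epithelial differentiation. NGFR is found on basal cells and also on nerve-associated and stromal cells. In whole preparations such as these, fewer cells of a type and less RNA per cell cannot be told apart.

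RefSeq promoter windows (build GRCm38.p6) matched 4 of the 8 genes, and 3 of those windows ended at the annotated start of the gene. The 250 bases before the start are shown for Krt5 (chr15:101712906-101713155, minus strand) and Ngfr (chr11:95587699-95587948, minus strand), the only genes of the list that rose after silica and had such a window. Capitals mark in Krt5 the whole stretch that matches the C and G spacing of a p53 family site, unfixed positions included, and in Ngfr the GC box, GGGCGG on either strand.
Krt5: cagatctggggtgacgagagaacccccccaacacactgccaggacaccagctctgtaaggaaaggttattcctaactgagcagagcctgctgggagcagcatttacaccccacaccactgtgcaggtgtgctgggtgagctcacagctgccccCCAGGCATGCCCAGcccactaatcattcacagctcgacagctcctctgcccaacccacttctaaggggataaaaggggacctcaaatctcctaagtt
Ngfr: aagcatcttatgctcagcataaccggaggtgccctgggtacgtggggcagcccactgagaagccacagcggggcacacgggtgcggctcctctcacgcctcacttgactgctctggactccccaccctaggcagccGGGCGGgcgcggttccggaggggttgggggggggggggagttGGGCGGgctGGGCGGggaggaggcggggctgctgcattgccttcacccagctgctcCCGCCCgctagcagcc
The Krt5 window held 56% G and C, no GGGCGG and 1 match to the p53 family spacing, from −97 to −84 relative to the start. The Ngfr window held 70.4% G and C, 4 GC boxes and 2 matches to the p53 family spacing, which are not in capitals. Of 32851 such windows 63.5% held that spacing, 32.7% a GC box, 12.4% TATAAA and 6.75% the AP-1 letters TGANTCA, all read on both strands. Neither window held TATAAA or TGANTCA. These matches describe letters only.

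Levels are log2 processed intensity minus the 75th percentile of the array. That percentile lay between 793 and 1179 intensity units, and 58.2 to 64.3% of probes were well above background. Ccr2 lay between −1.70 and 1.38 in WT and between −5.07 and −1.51 in Ccr2KO cells and was higher in WT cells on each day, though the ranges overlap. The epithelial gene Epcam lay between −0.51 and −0.15 on all 6 arrays. Ptprc, which encodes CD45, was at 2.62 and 2.14 at day 28 (WT and Ccr2KO) and between −0.61 and 1.54 on the other 4 arrays, so leukocyte RNA was present. The 6 arrays shared 1 slide, and the 3 arrays of its row 1 were WT untreated, Ccr2KO untreated and Ccr2KO day 28.

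With the 2 silica days averaged and set against untreated cells of both genotypes, Krt5, Krt14, Krt17 and Ngfr rose, none of the 8 fell, and Krt15, Trp63, Dapl1 and Trim29 did not pass when each gene was read from its brightest probe (limma, adjusted p below 0.05). Over all genes tested 10.5% rose and 9.33% fell. The median change of the 8 genes was 1.53 and that of all genes −0.01. Since the list was chosen with earlier results of these data known, these comparisons with all genes are descriptive. The p-values come from an additive fit of day and genotype with 2 residual degrees of freedom. They measure what that model left unexplained in 6 pooled samples, not variation between mice. A less bright probe for Trp63 rose as well, as described with that gene.

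Krt5, the type II keratin of basal cells, stood at −2.02 in WT untreated cells, −0.13 at day 28 and 0.37 at day 40. In Ccr2KO cells it stood at −2.46, 0.99 and 2.65 on the same days. All 4 silica arrays lay above both untreated arrays, and the Ccr2KO day 40 array was the highest of the 6. Relative to its own untreated array the signal was 3.70-fold and 5.23-fold higher in WT cells and 10.9-fold and 34.6-fold higher in Ccr2KO cells. The fitted change was 3.21 ± 0.58 (log2 difference ± SE, limma adjusted p = 0.0322). Steps smaller than the residual SD of 0.67 separated the 2 untreated arrays, WT day 28 from WT day 40, and WT day 40 from Ccr2KO day 28. The change was no longer called without WT day 28 (3.26, adjusted p = 0.150), Ccr2KO day 28 (3.16, adjusted p = 0.145) or Ccr2KO untreated (2.14, adjusted p = 0.0595), or without a filter on dim probes (adjusted p = 0.0615). It was also not called in the fit that held slide row constant (3.36, adjusted p = 0.389), a model with 1 residual degree of freedom in which no gene passed, as was the case without either day 28 array. Within slide row 1 the Ccr2KO day 28 array exceeded the Ccr2KO untreated array by 3.45. It exceeded the WT untreated array, which is also in that row and stood higher, by less.

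A dimmer Krt5 probe was not well above background on either untreated array or on WT day 28. It read −4.34 on WT day 40, −3.51 on Ccr2KO day 28 and −1.94 on Ccr2KO day 40. These 3 arrays stood in the same order on the brighter probe, and the other 3 have no order on this one. Each untreated array was counted at the lowest signal well above background on it. The mean of the 4 silica arrays was then 3.68-fold above the untreated ones. This is not a strict lower bound, since the floor is that of the array and WT day 28 entered at its own reading. Fitted on its own, this probe rose (limma adjusted p = 0.0480). It met the filter only through silica arrays, so the call is not independent of the filter.

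Krt14, the type I partner of KRT5, stood at −3.72, −1.56 and −0.97 in WT cells (untreated, day 28, day 40) and at −3.91, −0.86 and 0.76 in Ccr2KO cells. The 2 untreated arrays differed by less than the residual SD of 0.48, as did WT day 40 and Ccr2KO day 28. The signal was 4.46-fold and 6.75-fold above untreated in WT cells and 8.28-fold and 25.5-fold above untreated in Ccr2KO cells. Krt14 rose by 3.16 ± 0.41 (limma adjusted p = 0.0174). The call ended without WT day 28 (3.14, adjusted p = 0.113), without Ccr2KO day 28 (3.17, adjusted p = 0.107) and with slide row held constant (3.11, adjusted p = 0.328). Within slide row 1 Ccr2KO day 28 exceeded Ccr2KO untreated by 3.05, and WT untreated, which stood higher, by less.

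Krt17, a type I keratin induced in wounded epithelium, stood at −4.29, −2.29 and −1.56 in WT cells and at −4.65, −2.05 and −0.11 in Ccr2KO cells. The 2 untreated arrays and the 2 day 28 arrays were each separated by less than the residual SD of 0.46. The Ccr2KO day 40 array was again the highest, 23.3-fold above its untreated array against 6.63-fold in WT cells. Krt17 rose by 2.97 ± 0.40 (limma adjusted p = 0.0182). The call ended without WT day 28 (2.89, adjusted p = 0.115), Ccr2KO day 28 (3.05, adjusted p = 0.105) or Ccr2KO untreated (2.37, adjusted p = 0.0534), and with slide row held constant (2.74, adjusted p = 0.343). Normexp background correction, which raises dim signals, gave 1.89 (adjusted p = 0.00498). Within slide row 1 Ccr2KO day 28 exceeded Ccr2KO untreated by 2.60, and WT untreated, which stood higher, by less.

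Krt15, the remaining type I keratin of the list, did not follow the other keratins. It was at −1.57 in WT untreated cells, −3.20 at day 28 and −1.92 at day 40, and at −2.84, −2.94 and −2.20 in Ccr2KO cells. The highest array was an untreated one, and silica and untreated arrays overlapped. The WT day 28 signal was 3.10-fold below WT untreated, a pair in which 5.57% of all genes were at least 2-fold lower. The fitted change after silica was −0.36 ± 0.34 (limma adjusted p = 0.475). At day 28 alone it was −0.87 ± 0.39 (limma adjusted p = 0.199), which was called lower only when Ccr2KO untreated was left out (−1.5, adjusted p = 0.0482).

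**Figure D1:**
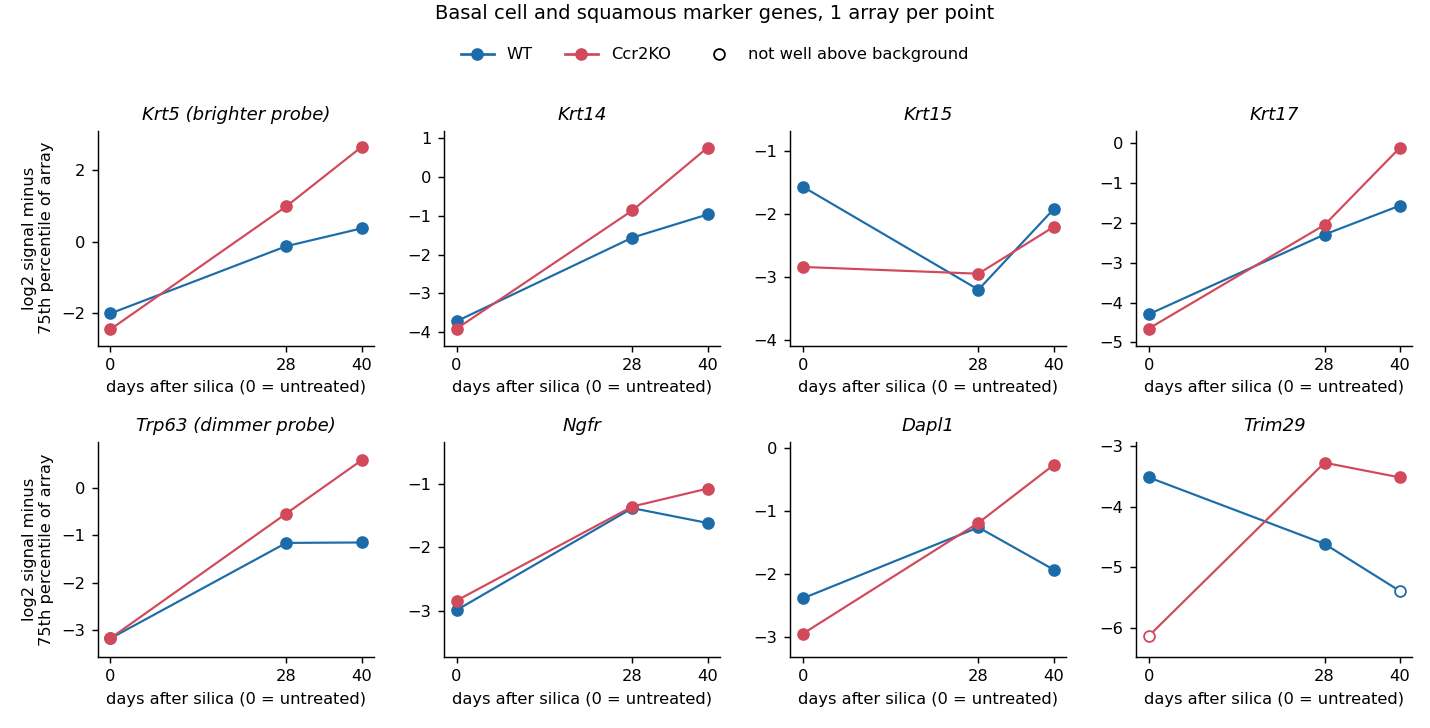
Log2 intensity minus the 75th percentile of the array (y axis, scaled separately in each panel) on days 0, 28 and 40 (x axis) for the 8 genes in WT (blue) and Ccr2KO (red) cells; each point is 1 array and open points are not well above background. Each panel shows the probe read as the gene, except that Trp63 is drawn from its dimmer probe, singled out after its values had been seen. The brighter Trp63 probe, which was read as the gene and did not pass, is not drawn here. Krt5, Krt14, Krt17 and the dimmer Trp63 probe are lowest in both untreated samples and highest in Ccr2KO cells at day 40, while Krt15 is highest in WT untreated cells and the Trim29 lines cross.

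Trp63, the gene of the basal cell regulator p63, was measured by 2 probes that disagreed. The brighter probe stood at 3.16, 2.80 and 3.01 in WT cells and at 3.16, 2.85 and 2.81 in Ccr2KO cells. It gave a change of −0.29 ± 0.11 after silica (limma adjusted p = 0.132). The dimmer probe stood at −3.18, −1.16 and −1.15 in WT cells and at −3.18, −0.53 and 0.59 in Ccr2KO cells. On this probe all 4 silica arrays lay above both untreated arrays, which were alike. Fitted on its own, the dimmer probe rose by 2.62 ± 0.38 (limma adjusted p = 0.0219), among 21590 probes of which 9.58% rose. At day 28 it rose by 2.33 ± 0.44 and at day 40 by 2.90 ± 0.44 (limma adjusted p = 0.0398 and 0.0287), beside 8.41% and 7.74% of probes. The mean of the 2 probes gave 1.16 (adjusted p = 0.0259). The files carry different RefSeq transcripts for the probes and no probe sequences, so the transcripts that each one detects were not examined. The dimmer probe was singled out after its values had been seen.

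**Figure D2:**
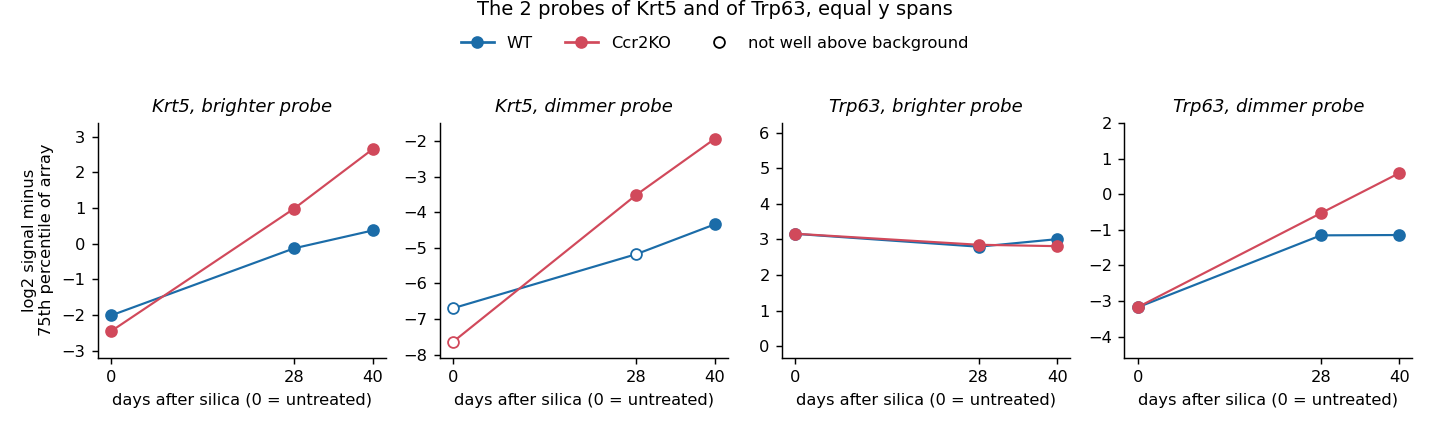
Log2 intensity minus the 75th percentile of the array (y axis, the same span in each panel) by day (x axis) for the 2 probes of Krt5 and of Trp63; each point is 1 array, open where not well above background. Both Krt5 probes are highest on the Ccr2KO day 40 array, whereas the brighter Trp63 probe stays between 2.80 and 3.16 and the dimmer one spans −3.18 to 0.59.

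Ngfr, the low-affinity neurotrophin receptor gene, stood at −2.99, −1.38 and −1.61 in WT cells and at −2.84, −1.35 and −1.07 in Ccr2KO cells. Silica and untreated arrays did not overlap. The 2 untreated arrays and the 2 day 28 arrays were each closer together than the residual SD of 0.17. Ngfr rose by 1.56 ± 0.15 (limma adjusted p = 0.0104), less than the keratins above but with a smaller error. The call ended without WT day 28 (1.48, adjusted p = 0.0854), without Ccr2KO day 28 (1.64, adjusted p = 0.0822) and with slide row held constant (1.32, adjusted p = 0.270). Within slide row 1 Ccr2KO day 28 exceeded Ccr2KO untreated by 1.49, and WT untreated, which stood lower, by more. Of the neurotrophin genes, Bdnf (−0.40 ± 0.14) did not pass (limma adjusted p = 0.116), and Ntf3 fell by 1.34 ± 0.09 (limma adjusted p = 0.00777).

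Dapl1 stood at −2.38, −1.26 and −1.93 in WT cells and at −2.94, −1.19 and −0.27 in Ccr2KO cells. Its 4 silica arrays lay above both untreated arrays, but WT day 40 and WT untreated differed by less than the residual SD of 0.57. The change of 1.5 ± 0.49 did not pass (limma adjusted p = 0.107), and it passed when WT day 40 was left out (1.98, adjusted p = 0.0243). It was 0.79 without Ccr2KO untreated, 1.03 without Ccr2KO day 40 and 2.22 without WT untreated, none of which passed (adjusted p = 0.386, 0.0695 and 0.0875). With Krt5, Krt14, Krt17 and Ngfr, Dapl1 made 5 of 8 genes without overlap between silica and untreated arrays, read from the brightest probe. Of all genes 21.1% had all 4 silica arrays above both untreated ones.

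Trim29 lay on opposite sides of its untreated level in the 2 genotypes. In WT cells it stood at −3.52 untreated, at −4.61 at day 28 and at −5.39 at day 40, where it was not well above background. In Ccr2KO cells it was not well above background when untreated (−6.13) and stood at −3.27 at day 28 and −3.52 at day 40. The Ccr2KO signals were at least 5.23-fold and 4.42-fold above untreated, and the WT day 40 signal at least 2.54-fold below. Both WT arrays below and both Ccr2KO arrays above their own untreated array was the pattern of 3.79% of all genes. Over both genotypes the change was 0.63 ± 1.04 (limma adjusted p = 0.691). It turned negative without Ccr2KO untreated (−1.49, adjusted p = 0.0425) and was called higher without WT untreated (2.74, adjusted p = 0.0192).

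By day, Krt14 (2.60 ± 0.48), Krt17 (2.30 ± 0.46) and Ngfr (1.55 ± 0.17) rose at day 28 against untreated (limma adjusted p = 0.0367, 0.0427 and 0.0150), while 9.19% of all genes rose and 8.04% fell. Krt5 gave 2.67 ± 0.67 at day 28 (limma adjusted p = 0.0685). It passed in 6 of the alternatives, among them probes above background on all 6 arrays (adjusted p = 0.0379). At day 40 Krt5 (3.75 ± 0.67), Krt14 (3.71 ± 0.48), Krt17 (3.64 ± 0.46) and Ngfr (1.58 ± 0.17) rose (limma adjusted p = 0.0380, 0.0208, 0.0202 and 0.0164), while 8.45% of all genes rose and 6.72% fell. Without the Ccr2KO day 40 array the day 40 changes were 2.78, 2.98, 2.88 and 1.35 in the same order. None of these was called in that fit, which has a lone day 40 array and called no other gene either. All of these day 28 and day 40 calls also ended without either day 28 array (adjusted p from 0.0841 to 0.271), and without Ccr2KO untreated Krt14 and Krt17 were not called at day 28 (1.90 and 1.70, adjusted p = 0.0689 and 0.104). With no filter on dim probes, Krt14 and Krt17 at day 28 and Krt5 at day 40 were not called (adjusted p = 0.0702, 0.0792 and 0.0562), and with slide row held constant no gene was called on either day. Dapl1 was called at day 28 without WT day 40 or Ccr2KO day 40 (1.44, adjusted p = 0.0374 in each fit) and at day 40 without WT day 40 (2.52, adjusted p = 0.0471). Its day 40 change of 1.56 ± 0.57 became 0.61 without Ccr2KO day 40 and 0.85 without Ccr2KO untreated, and its day 28 change of 1.44 ± 0.57 became 0.73 without Ccr2KO untreated, with no call (adjusted p = 0.306, 0.387 and 0.456). Between day 28 and day 40 none of the 8 genes passed, against 2.73% of all genes. The late difference was 1.08 ± 0.67 for Krt5, 1.11 ± 0.48 for Krt14, 1.33 ± 0.46 for Krt17, 1.01 ± 0.39 for Krt15 and 0.02 ± 0.17 for Ngfr (limma adjusted p from 0.290 to 0.951).

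Array by array, 5 of the 8 genes were at least 2-fold above untreated in WT cells at day 28 and 4 at day 40, where 9.14% and 7.79% of all genes were. In Ccr2KO cells 6 of the 8 were at least 2-fold above untreated on each day, against 9.37% and 8.93% of all genes. Krt15 and Trim29 at day 28 and Trim29 at day 40 were at least 2-fold below untreated in WT cells (6.19% of all genes at day 40), and none of the 8 was in Ccr2KO cells (5.99% and 5.8% of all genes). From day 28 to day 40 Krt15 differed 2.42-fold upwards in WT cells, where 2.17% of all genes were at least 2-fold higher and 5.61% lower. Krt5, Krt14 and Krt17 differed 3.18-fold, 3.08-fold and 3.83-fold upwards in Ccr2KO cells, where 2.76% of all genes were at least 2-fold higher and 4.77% lower.

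**Figure D3:**
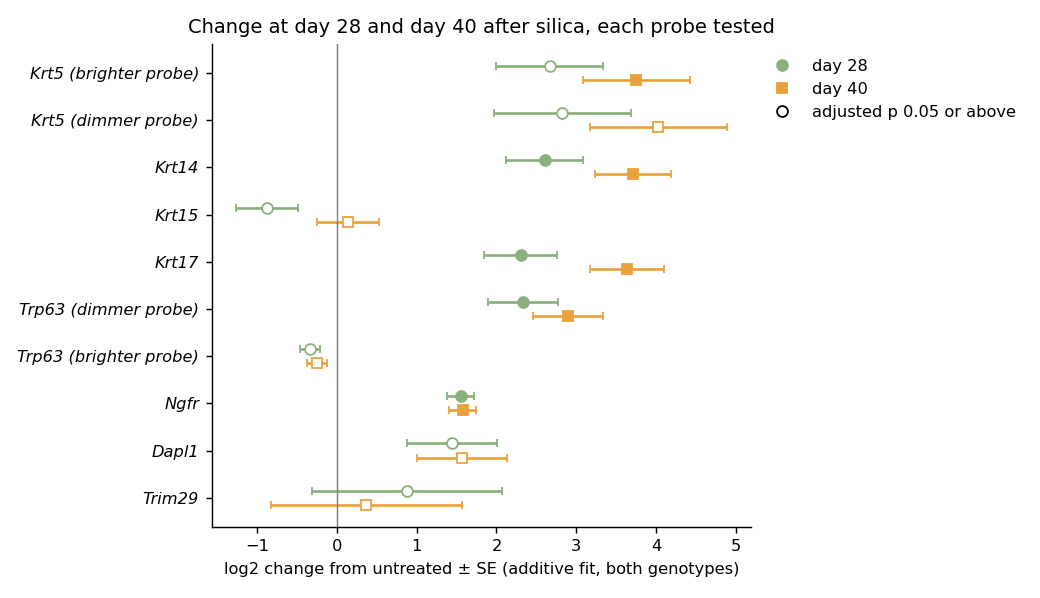
Fitted log2 change from untreated with its SE (x axis) at day 28 (circles) and day 40 (squares) for each probe of the 8 genes (y axis), from the fit of each probe on its own over both genotypes; filled symbols passed at adjusted p below 0.05. Krt14, Krt17, Ngfr and the dimmer Trp63 probe are filled on both days and the brighter Krt5 probe at day 40.

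Ccr2KO cells were compared with WT cells to ask whether lack of CCR2 alters these genes. At day 40 the Ccr2KO array exceeded the WT array 4.87-fold for Krt5, 3.31-fold for Krt14, 2.74-fold for Krt17, 3.16-fold for Dapl1 and at least 2.54-fold for Trim29. Ngfr was 1.46-fold higher, while Krt15 and the brighter Trp63 probe were lower by factors of 1.22 and 1.15. Of all genes, read from the brightest probe, 3.29% were at least 2-fold higher and 1.6% lower in that pair, which has no replicate. The dimmer Trp63 probe, singled out after its values had been seen and not part of that share, was 3.34-fold higher. At day 28 Krt5 (2.17-fold) and Trim29 (2.53-fold) exceeded 2-fold, as did 1.24% of all genes, while 1.19% were at least 2-fold lower. Among untreated cells Krt5, Krt14 and Krt17 were lower in Ccr2KO cells by factors of 1.36, 1.14 and 1.28, Krt15 by a factor of 2.41, and Trim29 by at least 4.43-fold, while 2.81% of all genes were at least 2-fold lower and 2.16% higher. The Ccr2KO day 40 array was the highest for 5 of the 8 genes and for 28.3% of all genes.

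No test of genotype passed for any of the 8 genes or for any other gene in the fits as described, and in the comparison over the 3 days 1 gene, none of the 8, passed under each of 3 alternatives (normexp, probes above background on all 6 arrays, and an intensity trend with a robust prior). Ccr2KO minus WT over the 3 days was 0.99 ± 0.55 for Krt5, 0.74 ± 0.39 for Krt14 and 0.45 ± 0.38 for Krt17 (limma adjusted p = 0.634, 0.618 and 0.744), and 1525 genes, none of the 8, had an unadjusted p below 0.05. In a fit of genotype by silica, the silica response of Ccr2KO cells exceeded that of WT cells by 2.14 ± 1.1 for Krt5, 1.40 ± 1.1 for Krt14, 1.21 ± 1.31 for Krt17, 1.43 ± 0.74 for Dapl1 and 0.13 ± 0.31 for Ngfr, with limma adjusted p = 0.9998 for each. The same difference was 4.22 ± 0.55 for Trim29 (limma adjusted p = 0.9998, unadjusted p = 0.00176), which was 1 of 619 genes with an unadjusted p below 0.05. Ccr2KO against WT over the silica arrays alone, a comparison added after the data had been seen, gave 1.70 ± 0.64 for Krt5 (limma adjusted p = 0.9997) and called 0 genes, with 621 at an unadjusted p below 0.05. Of the 8 genes only Trim29 was among those 621, at 1.61 ± 0.32 (limma adjusted p = 0.9997, unadjusted p = 0.00781).

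Keratin genes lie in a type I cluster on chromosome 11 and a type II cluster on chromosome 15, which also holds Krt18. Of 27 keratin genes on each chromosome, 15 and 14 were tested. On chromosome 11 4 rose, 3 fell and 8 did not pass (median −0.11). The neighbours Krt14, Krt16 and Krt17 rose, Krt16 by only 0.62 ± 0.12 (limma adjusted p = 0.0376), while Krt15 and Krt13, on the far side of Krt19 and Krt9, did not pass. Krt19, a keratin of simple epithelia, fell by 0.59 ± 0.11 (limma adjusted p = 0.0318). On chromosome 15 3 rose, 1 fell and 10 did not pass (median 0.09), and Krt5 had the highest change of the 14. Krt6b, which lies nearby, gave 0.36 ± 0.39 (limma adjusted p = 0.536), Krt6a was above background on no array, and Krt8 and Krt18, the keratin pair of simple epithelium, gave −0.24 ± 0.11 and −0.30 ± 0.09 (limma adjusted p = 0.190 and 0.0947). Krt20 and Krt71, which are among the keratin genes that rose, met the filter only through silica arrays. Krt32, which is among those that fell, met it only through the untreated arrays, where it stood at −5.14 (WT) and −5.03 (Ccr2KO). Krt14, Krt16 and Krt17 have similar sequences, and cross-hybridisation between their probes was not tested.

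**Figure D4:**
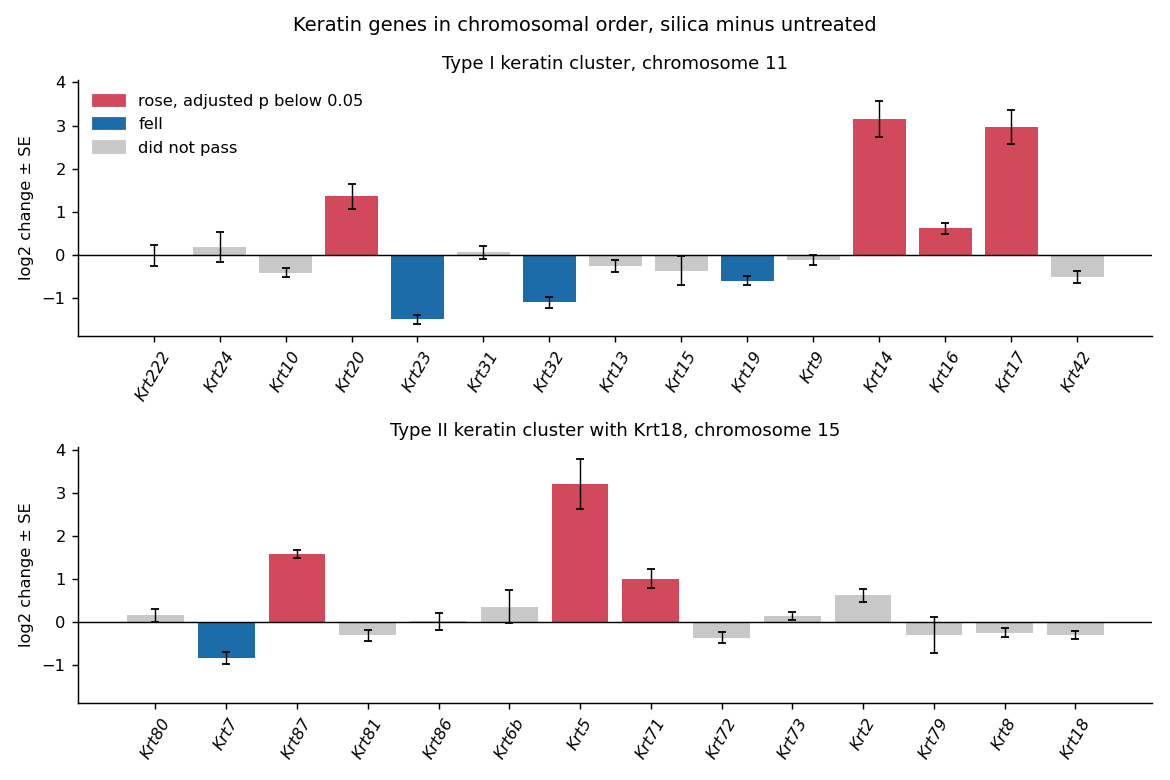
Log2 change after silica with its SE (y axis) for the tested keratin genes in their order along chromosomes 11 and 15 (x axis, evenly spaced); red bars rose, blue bars fell and grey bars did not pass at adjusted p below 0.05. Krt5, Krt14 and Krt17 stand near 3, and Krt15 lies at −0.36.

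Other genes of basal and squamous epithelium moved in both directions. Of 20 desmosome and p63-linked genes 17 were tested, of which 4 rose, 3 fell and 10 did not pass (median 0.18). Serpinb5, the gene of the epithelial serpin maspin, rose at least 13.4-fold and Pkp1, the gene of a desmosome plaque protein of squamous cells, at least 8.01-fold, neither being well above background before silica (limma adjusted p = 0.0135 and 0.0122). Tfap2a, a transcription factor gene of keratinocytes, rose by 3.25 ± 0.26 (limma adjusted p = 0.00892). Dsc2, a desmosomal cadherin gene, rose at least 1.90-fold (limma adjusted p = 0.0160). It was well above background only on the 2 Ccr2KO silica arrays, and its WT silica readings entered the mean as they were. Serpinb5, Pkp1 and Dsc2 met the filter only through silica arrays, where they are high, so their calls are not independent of the filter. The desmoplakin gene Dsp fell by 0.86 ± 0.10 and Bnc1, a basonuclin gene also active in mesothelium, by 1.42 ± 0.13 (limma adjusted p = 0.0147 and 0.00960). The basal cadherin genes Dsc3 and Dsg3 were each above background on at most 1 array.

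Among 12 hemidesmosome and basal adhesion genes 2 rose, 1 fell and 9 did not pass (median −0.10). Itgb4, the integrin beta-4 gene of hemidesmosomes, rose by 1.64 ± 0.13 and Cd44 by 1.28 ± 0.10, Lama3 fell by 1.03 ± 0.17 (limma adjusted p = 0.00900, 0.00885 and 0.0265), and Col17a1, a hemidesmosome collagen gene, gave −1.20 ± 0.44 (limma adjusted p = 0.135). With each probe fitted on its own, less bright Cd44 probes gave 1.44, 0.77 and 0.47 (limma adjusted p = 0.0128, 0.0510 and 0.0649). The less bright Lama3 probe gave −0.80 and did not pass (limma adjusted p = 0.0669). Of 27 squamous and hillock differentiation genes 21 were tested, of which 4 rose, 4 fell and 13 did not pass (median −0.20). The cornified envelope crosslinker Tgm1 (1.28 ± 0.24) and Ly6d (1.43 ± 0.32) rose, and the envelope genes Scel and Ppl fell by 2.62 ± 0.30 and 1.63 ± 0.11 (limma adjusted p = 0.0333, 0.0490, 0.0143 and 0.00760). Krt4, Krt6a, Sprr1b and Sprr3 were above background on no array. Of 24 genes of signals to basal cells 4 rose, 4 fell and 16 did not pass (median −0.11). The EGF receptor ligand Ereg (3.26 ± 0.15) and the activin antagonist Fst (3.73 ± 0.12) rose (limma adjusted p = 0.00677 and 0.00654). Ntf3 (−1.34 ± 0.09), Bmp4 (−0.65 ± 0.09), Fgfr2 (−0.56 ± 0.10) and Hes1 (−0.52 ± 0.10) fell (limma adjusted p = 0.00777, 0.0200, 0.0313 and 0.0392). Aqp3, a water channel of basal cells, gave 2.14 ± 0.50 and did not pass (limma adjusted p = 0.0552).

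**Figure D5:**
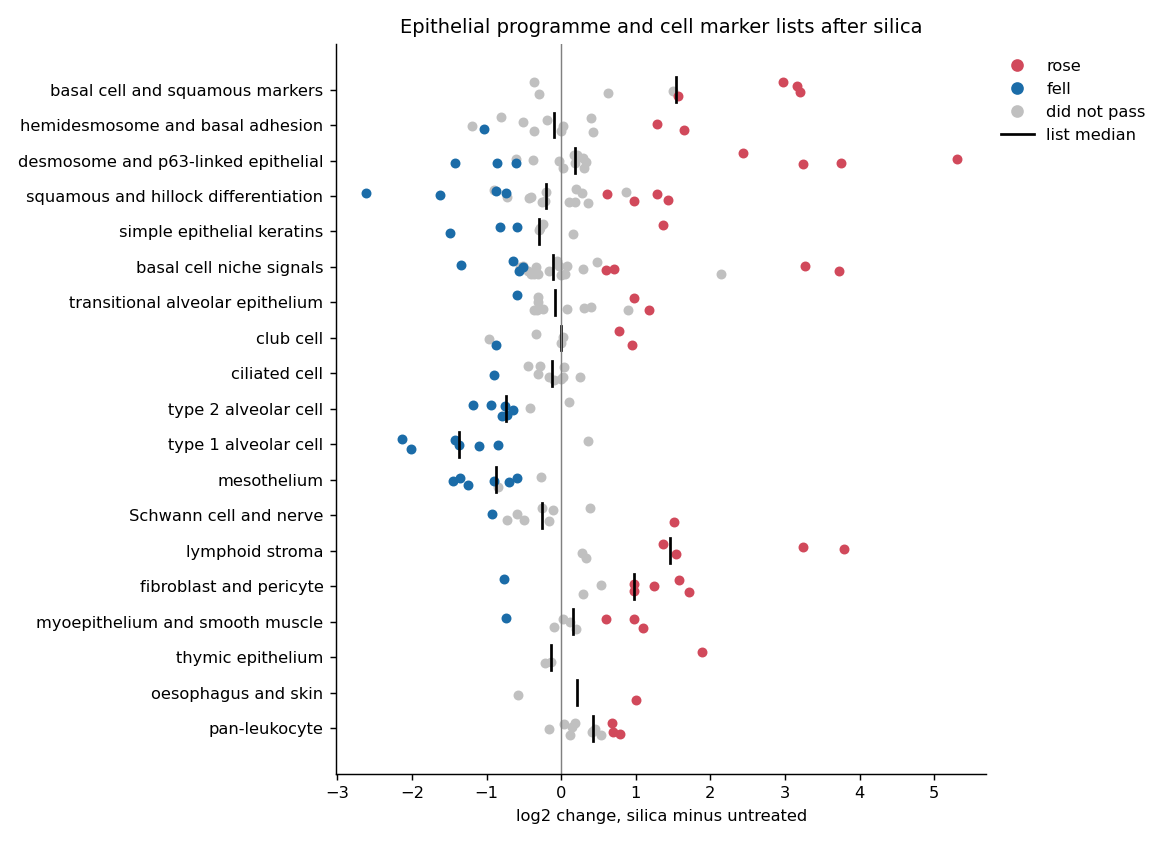
Log2 change after silica (x axis) of each tested gene in the 8 basal cell and squamous markers and in 18 comparison lists (y axis); red genes rose, blue genes fell, grey genes did not pass, and black bars are list medians. The 8 markers have a median of 1.53, the squamous differentiation list −0.20 and the ciliated cell list −0.12.

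Markers of other airway, alveolar and stromal cells moved beside these genes, and their part in the changes was not tested. The mean level of 7 club cell genes lay between 5.23 and 5.34 on the untreated and between 5.02 and 5.53 on the silica arrays (2 rose, 1 fell). That of 10 ciliated cell genes lay between 2.23 and 2.38 untreated and 1.94 and 2.23 after silica (1 fell). Type 1 alveolar genes lay between 4.42 and 4.74 untreated and between 3.15 and 3.48 after silica, with 6 of 7 falling, and 6 of 8 type 2 alveolar genes fell. Fibroblast and pericyte genes lay between 3.93 and 3.95 untreated and between 4.5 and 5.17, with 5 of 8 rising and Pdgfra falling. Of 8 myoepithelial and smooth muscle genes 3 rose and 1 fell, with mean levels of 2.50 to 2.53 untreated and 2.49 to 3.24 after silica. Pan-leukocyte genes ranged from 2.17 to 3.13 untreated and from 1.72 to 4.30 after silica (3 of 12 rose). For Ngfr, 9 tested Schwann cell and nerve genes lay between −0.65 and −0.55 untreated and −0.83 and −0.63 after silica (S100b rose and 1 gene fell), while 4 of 6 lymphoid stroma genes rose, with mean levels of −1.13 to −0.49 untreated and 0.66 to 1.21 after silica. Of 8 mesothelial genes 6 fell, of 12 genes of transitional alveolar epithelium 2 rose and 1 fell, and of 8 simple epithelial keratins 1 rose and 3 fell (medians −0.87, −0.08 and −0.30). The thymic epithelial genes Foxn1, Psmb11 and Aire were above background on no array, and Prss16 rose. Of 10 genes of oesophagus and skin 2 were tested and 1 rose, Krt71, at least 1.07-fold (mean level −3.40 to −3.26 untreated, −3.48 to −2.90 after silica).

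Among all tested genes, the profiles nearest to Krt5 and Krt14 were ranked by the root mean square difference of the 6 centred log2 levels, as a description of these 6 arrays. Krt14 and Krt17 differed from Krt5 by 0.22 and 0.38, Dapl1 by 0.96, Ngfr by 1.08 and Krt15 by 1.87. Outside the list the nearest to Krt5 were Tcl1 (0.33), Pkp1 (0.37), the formin gene Fhod3 (0.38), the adenylate kinase gene Ak5 (0.38), the protease gene Ctsk (0.39) and the carbonic anhydrase gene Car3 (0.43). The nearest to Krt14 were Tcl1 (0.21), Pkp1 (0.31), the kininogen gene Kng1 (0.33), Ak5 (0.33), Ttll2 (0.35) and the synaptotagmin gene Syt8 (0.36). Tcl1 was well above background on 2 of the 6 arrays, Pkp1, Ttll2 and Syt8 on 4 and Car3 on 5, so their distances rest in part on background readings and give no firm rank. Fhod3, Ak5, Ctsk and Kng1 were above background on all 6. Pkp1 is the only desmosomal gene among them, and Ctsk is a gene of osteoclasts and activated fibroblasts.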

How the data were processed

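The deposited scanner files hold processed intensity of 1 channel (Cy3) from design 028005, made with Feature Extraction 11.0.1.1 per the file headers. The deposited value table is the log2 of that intensity without scaling, for 30574 probes above background on every array (largest difference 5e-09). The submitters' processing notes name R 2.15.1.

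Control spots were left out, spots called outliers (109 to 195 on each array) became missing values, no spot was saturated, repeated spots were averaged, and the 75th percentile of each array was subtracted from its log2 intensity. Of 55681 probes 27509 matched 1 symbol through RefSeq accessions (GRCm38.p6). The filter asked for a signal well above background on 2 or more of the 6 arrays, and the brightest probe stood for the gene. A gene not well above background on any untreated array met it only through silica arrays, so its rise is not independent of the filter. The same holds for the fall of a gene well above background on untreated arrays alone. Changes were fitted over all genes with limma 3.58.1 in R 4.3.3 (Benjamini-Hochberg, 0.05), and the code was tested on simulated data. The 8 genes and the gene lists were chosen with earlier results of these data known. All 8 genes were named throughout, with up to 4 called genes of other lists, genes needed to describe a list, and the 6 nearest profiles, leaving out clone names. With no replicates, the number of arrays limits the precision. Where a gene was not well above background on any array of the lower side, "at least" counts those arrays at their own signal or, if higher, the lowest signal well above background. That lowest signal is of the array and not of the gene's own probe, so "at least" is not a strict bound. Normexp used median signals, since the files hold no mean signals. Array annotation used mm9. Some genes of the lists are counted but not reported by name here.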

Additional observations from a re-analysis of the deposited data

Results flagged for a closer look

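Trim29 stood out because both WT silica arrays lay below, and both Ccr2KO silica arrays above, their own untreated array. The silica response of Ccr2KO cells exceeded that of WT cells by 4.22 ± 0.55 (log2, limma adjusted p = 0.9998), a difference that did not pass. The probe was dim, and on WT day 40 and Ccr2KO untreated it was not well above background.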

How the results depend on the processing

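With slide row as a block, the number of the 8 genes called was 0 after silica, at day 28 and at day 40, against 4, 3 and 4, and with no filter on dim probes 1 was called at day 28; the cause was not tested. Leaving out an array gave 0 to 5 called genes in each of these comparisons and 0 in the others. Without either day 28 array the silica comparison called none of the 8, and without WT untreated or WT day 40 it called 5. These fits have 1 residual degree of freedom, and a lone array of a day is assumed to vary like the others. The mean of the probes turned Trp63 to 1.16 after silica and 1.33 at day 40, and leaving out Ccr2KO untreated turned Trim29 to −1.49 and −1.74, while leaving out WT untreated gave 2.74 and 2.48. Over 14 alternatives Krt5 ranged from 2.14 to 4.28 and passed in 9, Krt14 from 2.46 to 3.86 (11), Krt17 from 1.89 to 3.57 (10), Ngfr from 1.22 to 1.68 (11) and Dapl1 from 0.79 to 2.22 (1). Over all genes 3257 changed after silica and 0 to 4366 under the alternatives, with 1877 without a filter. Without a filter 1422 changed at day 28, 1236 at day 40 and 233 between the days, against 2830, 2491 and 449. Other settings gave 0 to 3920, 0 to 3558 and 0 to 704, with 0 in each under the slide row block, 704 between the days under normexp, 685 when 1 of the untreated arrays was left out, and 551 at day 40 without WT day 40. Quantile normalization moved none of 48 levels by more than the residual SD and normexp 13. The other comparisons called 0 of the 8 genes under every alternative run. No paired analysis was possible because each group has 1 array. Dim probes limit Trim29 and the dimmer Krt5 probe.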
